A study of Mus musculus with 8 samples.

Results

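T lineage genes, meaning the components of the T cell receptor, its coreceptors, the kinases and adaptors beneath it and the regulators of T cell development, were examined in lungs of mice with altered beta-catenin. The set held 36 genes listed by function. A gene counted as measured when at least 1 probe set carried its symbol and no other, and its brightest probe set by mean over the arrays stood for it. By this rule 34 of the 36 were measured among 19937 genes in all. Lck, the kinase that starts receptor signalling, and Il2rg, the common gamma chain of several interleukin receptors, had no such probe set and were not analysed here. Each of the 34 was represented by a single probe set.

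The groups were 4 mice labelled as carrying stabilized beta-catenin and 4 mice labelled as beta-catenin knockout, all untreated and at postnatal day 21. Beta-catenin carries canonical Wnt signals to the nucleus and also binds cadherins at cell junctions. The labels name neither the Cre line, the altered exons nor the cells that carried each allele, and they give no background strain, so the cells in which beta-catenin was altered, and whether the lungs were sampled whole, are unknown here. Mice without an altered allele were not analysed here, and a difference therefore does not show which group departed from an unmodified lung. Total RNA of lung was hybridised to Affymetrix arrays. The labels call the replicates biological and give 4 mice per group.

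T cells recognise peptide on MHC molecules through an antigen receptor whose variable chains carry no signalling parts of their own. The CD3 chains and the zeta chain pass the signal on, CD4 or CD8 binds the MHC molecule and brings in LCK, and ZAP-70 then phosphorylates the adaptors LAT and SLP-76. In a resting lung, T cells circulate through the vessels and lodge in the tissue beside NK cells, B cells and innate lymphoid cells, several of which share part of this machinery. Developing T cells rearrange their receptor genes in the thymus with the RAG proteins, and those genes serve here as markers of immature cells.

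Array quality bears on what follows. The median log2 value of an array was 5.97 to 5.98 in stabilized and 6.01 to 6.03 in knockout lungs, a small offset without overlap. Correlations between arrays over all genes were 0.993 to 0.996 within a group and 0.987 to 0.993 between groups. No 2 arrays differed by less than a root mean square of 0.164 over the gene values. All mice are labelled male, but 4 of the 8 arrays, 2 in each group, had high Xist and low Kdm5d, the pattern of a female. These were stabilized replicates 1 and 4 and knockout replicates 1 and 3, with Xist between 10.36 and 10.59 and 4.18 to 4.62 in the remaining 4. Gene calls were therefore also made within each pattern. Endothelial markers, which any lung sample should hold, had a mean log2 level of 10.26 to 10.42 across the arrays.

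T lineage genes were lower in stabilized than in knockout lungs. Among the 34 measured, 23 (67.6%) fell and 0 rose, while 11 missed the threshold (limma, p under 0.05 after Benjamini-Hochberg adjustment across every gene). Over all 19937 genes 4.96% were called lower and 4.65% were called higher. Higher genes thus made up 48.4% of all calls, or 61.2% with median centring and 65.7% with dim genes left out. The difference was below 0 in all 34 genes, against 10398 of the 19937, although Gata3 turned above 0 with median centring of the arrays and Ptcra with repeated quantile normalization. The median difference was -0.56 against -0.0069 over all genes, on the log2 scale of stabilized minus knockout. In 24 genes (70.6%) all 4 stabilized arrays lay below all 4 knockout arrays, as did 7.82% of all genes. Because the RNA came from bulk lung tissue, fewer T cells and less RNA per T cell cannot be told apart. The count of lower genes was 18 to 24 with 1 array left out, but it was 13 without knockout replicates 1 and 3 together and 5 among the 4 arrays with low Xist, where each group has 2 arrays.

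**Figure D1:**
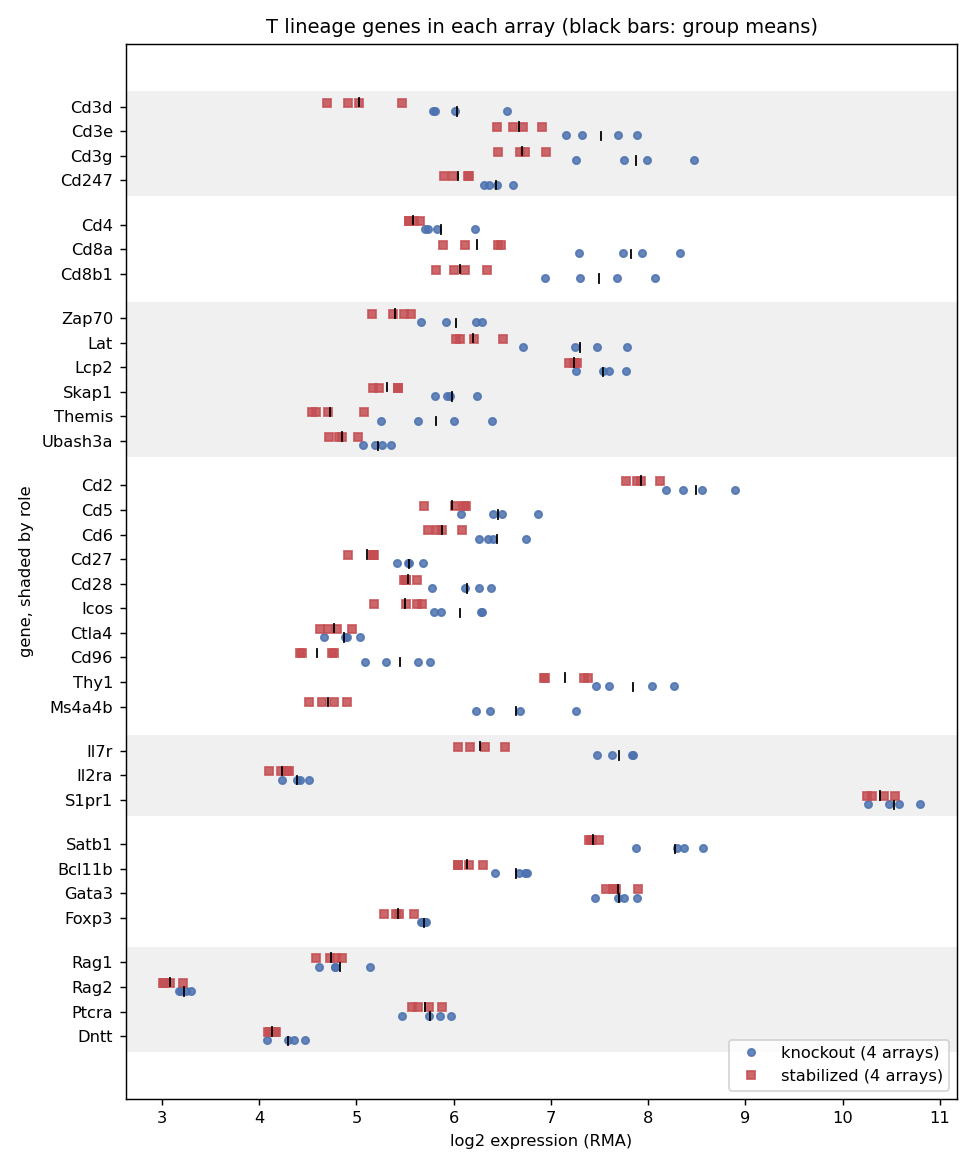
Log2 expression of the 34 measured T lineage genes (rows, shaded by role) in each of the 8 arrays, with knockout arrays as blue circles, stabilized arrays as red squares and group means as black bars. Cd8a, Ms4a4b and Il7r are split widely between the groups, while Gata3, Ctla4 and the 4 thymocyte genes at the bottom overlap.

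All 4 signalling chains of the receptor fell. Cd3d, Cd3e and Cd3g encode the CD3 delta, epsilon and gamma chains, and Cd247 encodes the zeta chain, which carries the most activation motifs of the complex. Log2 expression of Cd3g was 6.45, 6.68, 6.94 and 6.73 in the stabilized arrays, in replicate order, and 8.47, 7.76, 7.99 and 7.26 in the knockout arrays. The highest stabilized array thus lay below the lowest knockout array, and the knockout arrays were spread over a wider range than the stabilized ones. Cd3g was 2.25-fold lower, a log2 difference of -1.17 ± 0.20 (SE, 4 arrays a group; adjusted p = 0.00265 by limma).

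Cd3d read 4.91, 4.70, 5.02 and 5.47 in stabilized lungs and 6.55, 5.78, 6.01 and 5.81 in knockout lungs, and fell by 1.01 ± 0.18 (SE, limma adjusted p = 0.00322). Stabilized replicate 4 was the highest of its group and stood apart from the other 3, yet below every knockout array. For Cd3e the stabilized values were 6.61, 6.45, 6.91 and 6.71, the knockout values 7.89, 7.32, 7.69 and 7.16, and the decrease 0.85 ± 0.15 (SE). Cd247 was lower by a smaller amount, at 6.05 ± 0.12 (SD, n = 4) in stabilized against 6.43 ± 0.13 in knockout lungs, a decrease of 0.38 ± 0.08 (SE, limma adjusted p = 0.0125). NK cells also use the zeta chain. The 4 chains passed the test in each of the 8 fits that left out 1 array.

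The CD8 coreceptor fell and the CD4 coreceptor did not pass the test. Cd8a and Cd8b1 encode the 2 chains of the CD8 heterodimer of cytotoxic T cells, and are neighbours on chromosome 6. Cd8a lay at 5.89, 6.12, 6.48 and 6.46 in stabilized and 8.33, 7.74, 7.94 and 7.28 in knockout lungs, with a gap between the groups wider than the range of the stabilized arrays. It was 3.01-fold lower (log2 difference -1.59 ± 0.19, SE, limma adjusted p = 2.42e-04). Cd8b1 lay at 5.82, 6.01, 6.34 and 6.12 against 8.07, 7.30, 7.68 and 6.94, and was 2.69-fold lower (limma adjusted p = 6.08e-04). Knockout replicate 1 was highest and knockout replicate 4 lowest for both chains.

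Cd4, the coreceptor of helper T cells, read 5.65, 5.54, 5.59 and 5.54 in stabilized lungs and 6.22, 5.82, 5.71 and 5.74 in knockout lungs. The groups did not overlap, but knockout replicate 1 stood well above the other 3 knockout arrays. The difference was -0.29 ± 0.10 (SE, limma adjusted p = 0.0921), and -0.18 when knockout replicate 1 was left out. Both CD8 genes remained lower in every fit that left out 1 array, whereas Cd4 passed in 0 of the 8. Cd4 lay below the level of the median gene, 6.42, in every array, and whether background compressed its difference was not tested.

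The sequences around the transcription starts of the 3 CD3 genes and of Cd8a are shown because these genes fell together and because Cd3g, Cd3d and Cd3e sit next to each other on chromosome 9 with 0 coding genes between neighbours. Each window runs from 250 bases before to 50 after the most upstream annotated start (RefSeq, GRCm38.p6), 5′ to 3′ on the gene's own strand. Capitals mark 5 searched motifs on both strands: the ETS core AGGAAG, the RUNX core TGTGGT, the GATA site AGATAA, the E-box CAGCTG and the TCF/LEF core CTTTGA, the last bound by the factors that beta-catenin partners. No matches overlapped in the windows shown. The windows lie at chr9:44981536-44981835, plus strand for Cd3d, chr9:44980382-44980681, minus strand for Cd3g, chr9:45009562-45009861, minus strand for Cd3e and chr6:71373177-71373476, plus strand for Cd8a.
Cd3d: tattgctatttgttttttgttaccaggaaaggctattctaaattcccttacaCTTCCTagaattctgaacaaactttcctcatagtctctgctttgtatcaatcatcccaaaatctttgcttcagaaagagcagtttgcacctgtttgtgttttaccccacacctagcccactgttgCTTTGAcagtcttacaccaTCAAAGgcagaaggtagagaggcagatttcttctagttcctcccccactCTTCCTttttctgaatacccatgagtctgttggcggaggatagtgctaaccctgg
Cd3g: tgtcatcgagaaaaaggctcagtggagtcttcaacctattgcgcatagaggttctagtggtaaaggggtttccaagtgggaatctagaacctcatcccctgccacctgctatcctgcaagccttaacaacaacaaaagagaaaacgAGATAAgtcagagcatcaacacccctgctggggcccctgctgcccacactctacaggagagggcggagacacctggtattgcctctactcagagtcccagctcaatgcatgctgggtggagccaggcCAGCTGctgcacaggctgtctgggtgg
Cd3e: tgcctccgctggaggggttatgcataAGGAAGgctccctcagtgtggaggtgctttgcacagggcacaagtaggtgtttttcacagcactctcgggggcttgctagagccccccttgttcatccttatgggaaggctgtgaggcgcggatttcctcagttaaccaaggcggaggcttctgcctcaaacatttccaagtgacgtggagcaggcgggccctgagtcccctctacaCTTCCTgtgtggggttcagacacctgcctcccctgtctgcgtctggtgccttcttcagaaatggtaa
Cd8a: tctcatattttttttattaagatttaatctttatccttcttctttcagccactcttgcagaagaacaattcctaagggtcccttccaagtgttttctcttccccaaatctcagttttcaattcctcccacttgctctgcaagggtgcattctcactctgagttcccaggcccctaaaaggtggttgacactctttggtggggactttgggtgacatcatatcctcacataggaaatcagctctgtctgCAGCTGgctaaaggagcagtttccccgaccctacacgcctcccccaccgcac

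Cd3d held 2 ETS and 2 TCF/LEF matches, Cd3e held 2 ETS matches, Cd3g held 1 GATA and 1 E-box match, and Cd8a held 1 E-box match. The 3 CD3 windows did not hold the same set of matches. Windows were found for 27 of the 36 genes. The ETS core was in 15 of these (55.6%) against 35.1% of the windows of 27025 genes, and the TCF/LEF core was in 7 (25.9%) against 16.2%. The RUNX core was in 6 (22.2% against 16.9%), the E-box in 6 (22.2% against 16.1%) and the GATA site in 4 (14.8% against 11.4%). Of the 16 genes with a window that fell, 5 held the TCF/LEF core and 8 the ETS core, as did 2 and 5 of the 9 with a window that did not pass the test. The remaining windows belong to Lck and Il2rg. A match describes the letters only and is not evidence that a factor binds there.

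Beneath the receptor, 5 of 6 measured kinases, adaptors and regulators fell, with a median difference of -0.65. Zap70, the kinase that docks on the phosphorylated CD3 and zeta chains, read 5.16, 5.38, 5.56 and 5.49 in stabilized and 6.29, 5.93, 6.23 and 5.66 in knockout lungs. The groups were separated by a narrow gap between stabilized replicate 3 and knockout replicate 4. Zap70 was 1.55-fold lower (log2 difference -0.63 ± 0.13, SE; adjusted p = 0.00952 by limma).

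Lat, the membrane adaptor on which the signalling complex assembles, lay at 6.02, 6.07, 6.51 and 6.21 in stabilized and 7.78, 7.25, 7.47 and 6.71 in knockout lungs and was 2.14-fold lower (limma adjusted p = 0.0024). Themis, a regulator of receptor signalling that thymocytes need for selection, lay at 4.71, 4.59, 5.08 and 4.55 against 6.39, 5.63, 6.0 and 5.25 and fell by 1.09 ± 0.20 (SE). Both genes showed knockout replicate 1 highest and knockout replicate 4 lowest. Skap1, an adaptor that couples the receptor to integrin adhesion, was tighter, at 5.31 ± 0.13 against 5.99 ± 0.18 (SD, n = 4), and fell by 0.67 ± 0.10 (SE, limma adjusted p = 8.75e-04). Ubash3a, a suppressor of receptor signalling, fell by 0.37 ± 0.08 (SE, limma adjusted p = 0.0138), a call that was lost without knockout replicate 3 (adjusted p = 0.0504).

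Lcp2, which encodes the adaptor SLP-76, is also made by myeloid cells, mast cells and platelets. It read 7.19, 7.24, 7.27 and 7.24 in stabilized lungs and 7.77, 7.54, 7.59 and 7.26 in knockout lungs, so that knockout replicate 4 lay among the stabilized arrays. Its difference of -0.30 ± 0.09 (SE, limma adjusted p = 0.062) did not pass, but passed without knockout replicate 4 (adjusted p = 0.0068) and, narrowly, with repeated quantile normalization, a filter on dim genes, a trend in the variance prior or array weights (adjusted p = 0.040 to 0.048).

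Among the 10 costimulatory, inhibitory and adhesion receptors 8 fell, with a median difference of -0.57. Ms4a4b, a membrane protein of T cells from a family of similar genes that probes may not fully tell apart, had the largest decrease of the 34 genes. Its log2 level was 4.51, 4.91, 4.77 and 4.64 in stabilized and 7.26, 6.37, 6.68 and 6.23 in knockout lungs, with a wide gap between the groups, and it was 3.81-fold lower (log2 difference -1.93 ± 0.18, SE, limma adjusted p = 3.45e-05). Only 4 of the 19937 genes had a more negative difference.

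CD28 and ICOS are receptors that give T cells a costimulatory signal, and CTLA-4 competes with CD28 for its ligands. Cd28, Ctla4 and Icos lie next to one another on chromosome 1 with no coding gene between them. Cd28 was tight in stabilized lungs, at 5.51, 5.63, 5.49 and 5.5, against 6.26, 6.11, 6.38 and 5.78 in knockout lungs, and fell by 0.60 ± 0.11 (SE, limma adjusted p = 0.00421). Icos read 5.18, 5.63, 5.68 and 5.5 against 6.29, 5.87, 6.28 and 5.80 and fell by 0.57 ± 0.13 (SE, limma adjusted p = 0.0185). The Icos call was lost when stabilized replicate 1 or either of knockout replicates 1 and 3 was left out (adjusted p = 0.054, 0.051 and 0.062). Ctla4, a gene of activated and regulatory T cells, read 4.62, 4.80, 4.96 and 4.71 against 5.03, 4.91, 4.67 and 4.88, with overlapping groups and a difference of -0.10 ± 0.09 (SE, limma adjusted p = 0.534).

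Cd96, an adhesion receptor shared by T and NK cells, fell by 0.85 ± 0.14 (SE, limma adjusted p = 0.00192), from 5.45 ± 0.30 in knockout to 4.59 ± 0.19 in stabilized lungs (SD, n = 4). Cd27, a receptor of the tumour necrosis factor family on naive and memory lymphocytes, fell by 0.43 ± 0.08 (SE), and Cd6, a scavenger receptor family protein that tunes receptor signalling, fell by 0.56 ± 0.11 (SE). Cd5, the neighbour and relative of Cd6, overlapped between the groups at 6.01, 5.70, 6.11 and 6.13 against 6.86, 6.5, 6.40 and 6.07. The Cd5 difference of -0.47 ± 0.14 (SE, limma adjusted p = 0.061) passed only without knockout replicate 4 (adjusted p = 0.013) or with the Xist pattern as a covariate (adjusted p = 0.042). B-1 cells also carry CD5.

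Cd2, an adhesion receptor of T and NK cells, read 7.89, 8.12, 7.78 and 7.92 in stabilized and 8.90, 8.36, 8.56 and 8.18 in knockout lungs and fell by 0.57 ± 0.13 (SE, limma adjusted p = 0.0166). Thy1, a surface protein of mouse T cells that some fibroblasts also make, read 6.94, 6.92, 7.38 and 7.34 against 8.27, 7.60, 8.04 and 7.47 and fell by 0.70 ± 0.17 (SE, limma adjusted p = 0.0201). The groups did not overlap in either gene, but the closest arrays nearly met. The Cd2 call was lost without knockout replicate 3 (adjusted p = 0.052), and the Thy1 call without stabilized replicate 1 or 2 or knockout replicate 3 (adjusted p = 0.066, 0.071 and 0.067). Without knockout replicate 3, the count of receptors that fell was 5 of 10.

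Of the cytokine and egress receptors only Il7r fell, among 3 measured. The interleukin-7 receptor alpha chain keeps naive and memory T cells alive and is also made by innate lymphoid cells. Il7r lay at 6.16, 6.05, 6.53 and 6.32 in stabilized (SD 0.21) and 7.84, 7.63, 7.84 and 7.47 in knockout lungs (SD 0.18). It was 2.69-fold lower (log2 difference -1.43 ± 0.11, SE, limma adjusted p = 8.45e-06). Its adjusted p was the smallest of the 34 genes, and the difference lay between -1.52 and -1.36 whichever array was left out. Its window (chr15:9529827-9530126, minus strand) is shown because of this, with 1 ETS and 1 RUNX match in capitals.
Il7r: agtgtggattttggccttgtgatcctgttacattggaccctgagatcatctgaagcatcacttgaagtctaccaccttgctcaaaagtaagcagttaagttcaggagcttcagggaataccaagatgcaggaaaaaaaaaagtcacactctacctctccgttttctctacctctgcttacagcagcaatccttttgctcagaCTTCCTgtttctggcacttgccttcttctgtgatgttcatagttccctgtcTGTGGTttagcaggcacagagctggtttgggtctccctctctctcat

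Il2ra, the inducible alpha chain of the interleukin-2 receptor, read 4.23, 4.10, 4.29 and 4.31 against 4.51, 4.39, 4.42 and 4.23, with overlapping groups and a difference of -0.16 ± 0.08 (SE, limma adjusted p = 0.217). S1pr1, the receptor through which lymphocytes leave lymphoid organs, is strongly made by endothelium. It read 10.26, 10.30, 10.54 and 10.43 in stabilized and 10.26, 10.48, 10.58 and 10.79 in knockout lungs, and differed by -0.15 ± 0.11 (SE, limma adjusted p = 0.428). In the knockout group replicate 1 was its lowest array and replicate 4 its highest, the opposite ends to most T lineage genes.

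Among the transcription and chromatin regulators, Satb1, Bcl11b and Foxp3 fell and Gata3 did not pass the test. Satb1, a genome organiser abundant in thymocytes and T cells, lay at 7.39, 7.5, 7.43 and 7.41 in stabilized lungs, a narrow range, and at 8.57, 8.29, 8.37 and 7.87 in knockout lungs. It was 1.79-fold lower (limma adjusted p = 6.86e-04). Bcl11b, which fixes the T cell fate, read 6.04, 6.04, 6.30 and 6.15 against 6.75, 6.73, 6.67 and 6.42 and fell by 0.51 ± 0.09 (SE, limma adjusted p = 0.00296).

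Foxp3, the transcription factor of regulatory T cells, read 5.40, 5.28, 5.44 and 5.59 in stabilized and 5.71, 5.68, 5.71 and 5.66 in knockout lungs. The groups nearly met, and the decrease was 0.26 ± 0.07 (SE, limma adjusted p = 0.0392). Its call was the least stable of the 23: 7 of 8 leave-one-out fits did not call it (adjusted p = 0.0643 to 0.105), and it held without stabilized replicate 4. The Foxp3 call was also lost with median centring, repeated quantile normalization, a trend in the variance prior or a replicate block, and within each Xist pattern. It was kept with array weights or the Xist pattern as a covariate. Gata3, which T helper cells share with innate lymphoid cells and some epithelium, read 7.90, 7.64, 7.57 and 7.67 against 7.89, 7.75, 7.69 and 7.46. Its groups overlapped throughout, with a difference of -0.0015 ± 0.10 (SE, limma adjusted p = 0.995).

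None of the 4 thymocyte genes passed the test, and all had overlapping groups (limma; 0 of the 4 had an unadjusted p under 0.05, the lowest being 0.0517 for Rag2). All 4 differences were below 0. The mean of the 4 genes was 4.377 to 4.497 in stabilized and 4.500 to 4.578 in knockout arrays, so the groups nearly met without overlap. Rag1 and Rag2, neighbours on chromosome 2 that encode the recombinase of antigen receptor genes, differed by -0.09 ± 0.10 and -0.14 ± 0.07 (SE; adjusted p = 0.632 and 0.207 by limma). Rag1 read 4.85, 4.58, 4.79 and 4.73 in stabilized and 5.14, 4.78, 4.78 and 4.62 in knockout lungs. Rag2 read 3.09, 3.01, 3.02 and 3.21 against 3.24, 3.17, 3.20 and 3.30. Ptcra, the surrogate alpha chain of the pre-T cell receptor, differed by -0.05 ± 0.11 (SE), and Dntt, the polymerase that adds bases at receptor junctions, by -0.17 ± 0.08 (SE). These probe sets were dim, and background left in a dim probe set can compress a difference, so a change in few cells may not be measurable here. In all, 22 of the 34 genes had a mean below that of the median gene, 6.42 on the log2 scale.

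**Figure D2:**
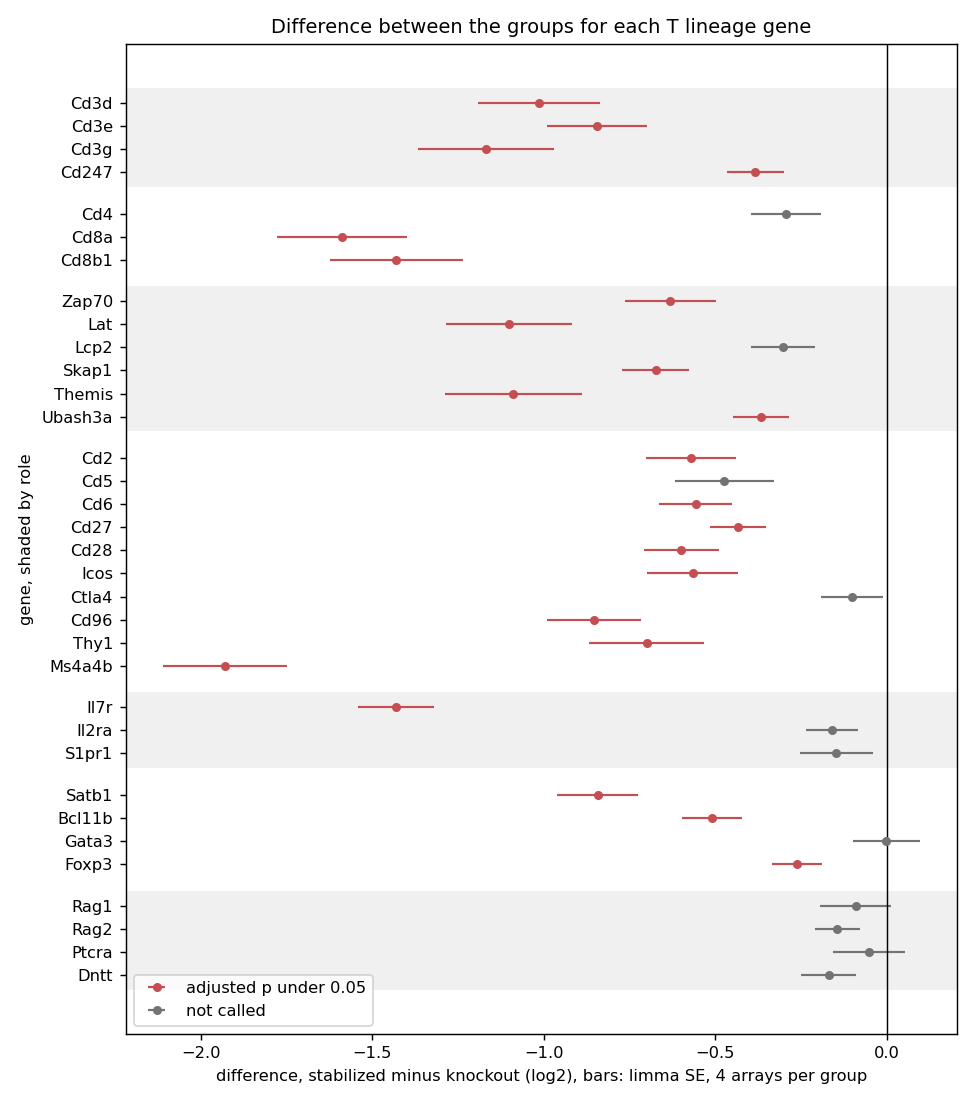
Difference between stabilized and knockout lungs (log2, stabilized minus knockout) for the 34 measured T lineage genes, ordered and shaded by role, with limma standard errors from 4 arrays per group. The 23 genes that passed the test (red) lie between -1.93 (Ms4a4b) and -0.26 (Foxp3), and the thymocyte genes at the bottom lie between -0.17 and -0.05.

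Related genes were also set side by side in 7 pairs. The pairs were chosen with these values known, so their differences are a description and carry no test. Taking the difference between the genes within each array, the stabilized minus knockout value was -1.29 ± 0.22 (SE, n = 4 per group) for Cd8a minus Cd4 on the log2 scale, without overlap between the groups. It was -1.27 ± 0.08 for Il7r minus Il2ra, -0.79 ± 0.20 for Cd3g minus Cd247 and -0.46 ± 0.17 for Icos minus Ctla4 (SE), also without overlap. The groups overlapped for Cd28 minus Ctla4 (-0.50 ± 0.19), Cd8a minus Cd8b1 (-0.16 ± 0.07) and Cd5 minus Cd6 (0.08 ± 0.12, SE). Cd4, Il2ra and Ctla4 were among the dim probe sets, and whether background compressed their differences was not tested.

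Within the knockout group, most of these genes moved up and down together from lung to lung, and within the stabilized group they did so less. After subtraction of group means, 1 component carried 76.0% of the variance of the 34 genes over the 8 arrays, against 28.0% over all genes. It carried 89.4% among the knockout arrays and 62.0% among the stabilized arrays, where all genes gave 47.0% and 51.6%. Genes were not scaled for these shares, so those with a wide spread weigh most. The mean level of the T lineage genes was 5.84 in stabilized and 6.47 in knockout lungs. Whether background in dim probe sets reduced the shared variation of the stabilized arrays was not tested, and the all-gene shares are not matched for level. A correlation is not given because a group has 4 arrays.

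In the knockout group, replicate 1 was the highest array for 27 of the 34 genes and replicate 4 the lowest for 25. Over all genes these arrays were highest and lowest in 29.1% and 26.3%. Other leukocyte genes had a like order: the mean of the pan-leukocyte list deviated from its knockout mean by 0.28, -0.08, 0.12 and -0.32 in replicates 1 to 4, and that of the T lineage genes by 0.26, -0.08, 0.06 and -0.24. The NK and B cell lists were likewise highest in knockout replicates 1 and 3. Median deviations from the group mean were 0.24, -0.07, 0.05 and -0.24 in knockout replicates 1, 2, 3 and 4 and -0.10, -0.07, 0.11 and 0.04 in the stabilized ones. Replicate 3 was the highest of the stabilized arrays for 16 genes and replicate 1 the lowest for 17, against 24.6% and 17.6% of all genes. Spread was wider among knockout lungs, with a median SD of 0.23 against 0.14 in stabilized lungs, and the SD was larger in the knockout group for 29 of the 34 genes (85.3%). Over all genes the SD was larger in the knockout group for 43.7%. The mean of the T lineage list had an SD of 0.21 in knockout and 0.10 in stabilized lungs. Other leukocyte lists were also wider in knockout lungs: pan-leukocyte (0.26 against 0.09), B cell (0.16 against 0.04) and NK (0.17 against 0.05). The fibroblast, thymic stroma and group 2 innate lymphoid lists were wider in stabilized lungs. Genes that departed from the shared order included S1pr1, Ptcra and Rag2, for which knockout replicate 1 was not the highest.

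**Figure D3:**
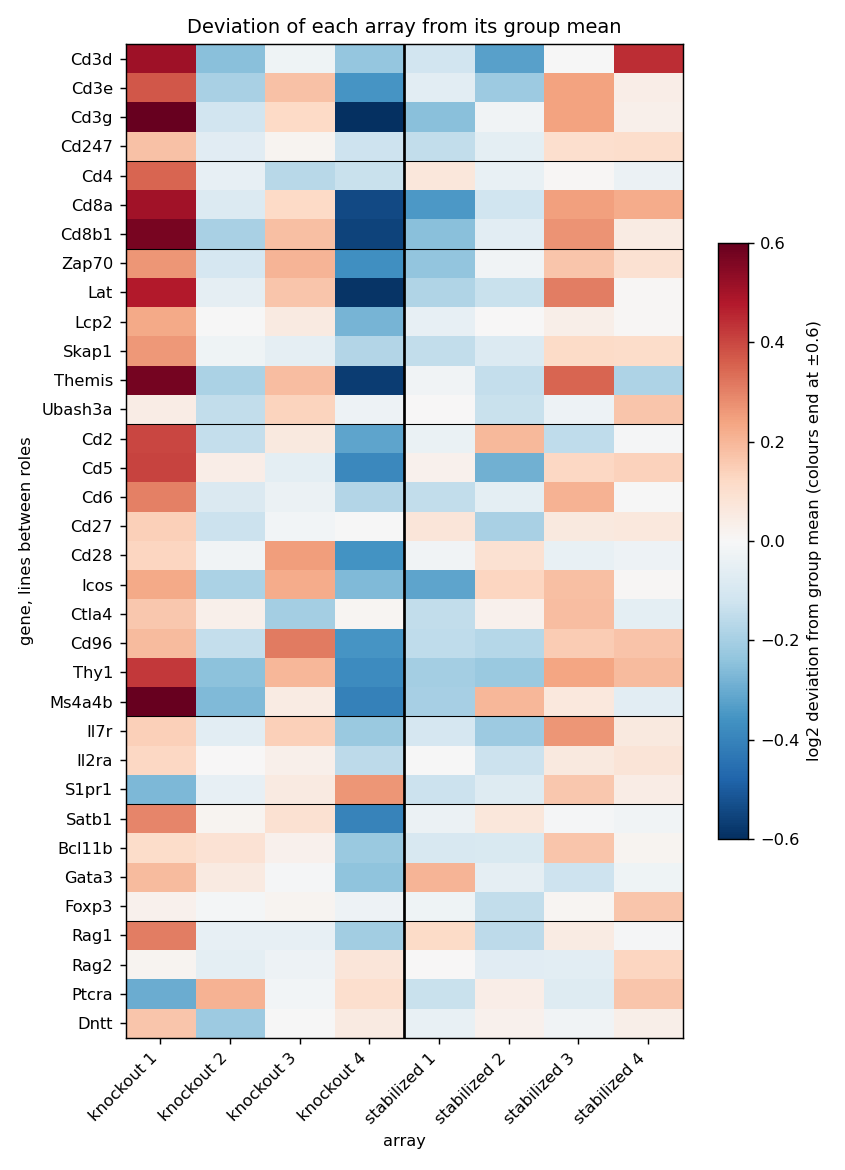
Deviation of each array (columns) from the mean of its own group for the 34 T lineage genes (rows, lines between roles), in log2 units, red above and blue below the group mean. Knockout replicate 1 is red and knockout replicate 4 blue in most rows, with S1pr1 and Ptcra the other way round, and the stabilized arrays are paler.

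The difference was also taken within each Xist pattern. Among the 4 arrays with high Xist the median difference of the 34 genes was -0.78, and among the 4 with low Xist it was -0.37. The difference was below 0 in 33 of 34 genes in each pattern, and it was more negative in the high-Xist arrays for 29 genes. Cd8b1, for example, differed by -1.91 in the high-Xist arrays and by -0.95 in the low-Xist arrays, Icos by -0.95 and -0.18, and Themis by -1.57 and -0.61. Il7r was closer, at -1.60 and -1.26. In an interaction test of genotype and pattern with limma, chosen after seeing the data, 0 of the 34 genes passed after adjustment over all genes (smallest adjusted p = 0.995). At an unadjusted p under 0.05, 14 of the 34 genes and 4.22% of all genes had an interaction. Each pattern has 2 arrays per group, and the high-Xist knockout arrays are replicates 1 and 3, the arrays highest for the T lineage genes on average. Sex and other differences between these mice cannot be told apart.

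**Figure D4:**
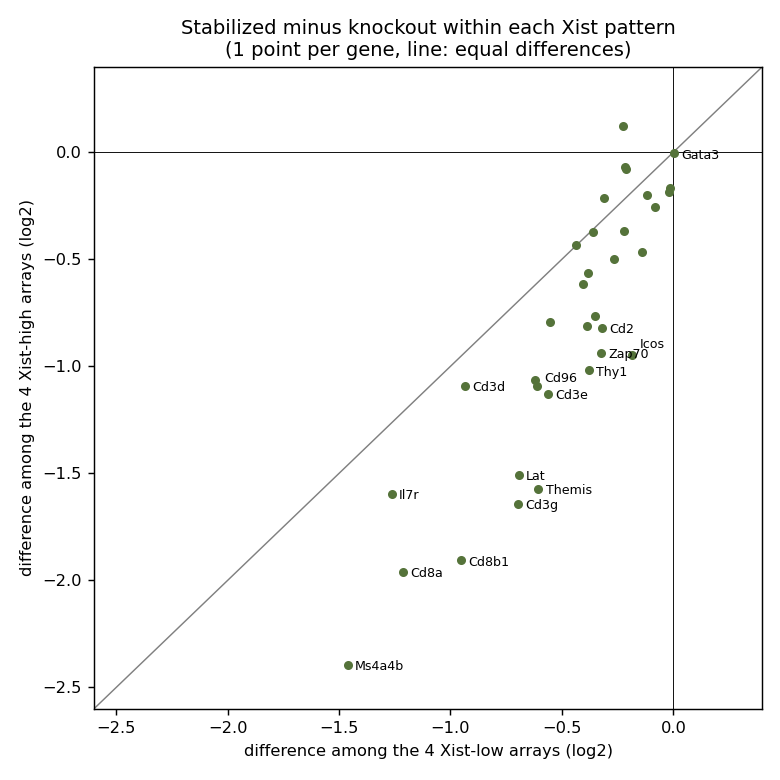
Stabilized minus knockout difference (log2) of each T lineage gene among the 4 low-Xist arrays (horizontal) and the 4 high-Xist arrays (vertical), 2 arrays per group in each, with a line of equal differences. Of the 34 points, 29 lie below the line, with Ms4a4b at -1.46 and -2.40 and Gata3 near 0 on both axes.

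Other genes of the receptor pathway, none of them among the 36, were taken from a separate list. Among its 44 measured genes 13 fell and 1 rose, while 30 missed the threshold, with a median difference of -0.20. Grap2, the adaptor that joins SLP-76 to LAT, read 6.21, 6.11, 6.21 and 6.33 in stabilized and 7.51, 6.89, 7.02 and 6.98 in knockout lungs, without overlap, and fell by 0.88 ± 0.12 (SE, limma adjusted p = 4.73e-04). Sh2d2a, a T cell adaptor that binds LCK, fell by 0.60 ± 0.07 (SE), and Ptpn22, a phosphatase that restrains receptor signalling, fell by 0.79 ± 0.11 (SE). Pik3cd, the leukocyte catalytic subunit of phosphoinositide 3-kinase, fell by 0.48 ± 0.08 (SE). The gene that rose was Ppp3r1, the regulatory subunit of calcineurin, named after its values were seen. Its increase of 0.25 ± 0.07 (SE, limma adjusted p = 0.0405) did not hold in 6 of 8 leave-one-out fits (adjusted p up to 0.104 by limma). The number of lower genes was 10 to 18 with 1 array left out, 8 without knockout replicates 1 and 3 together and 1 among the low-Xist arrays.

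Of 47 other T cell identity and effector genes 23 fell, 0 rose and 24 did not pass, with a median difference of -0.26. Cd69, an early activation and residency marker, read 4.56, 4.52, 4.52 and 4.30 in stabilized and 5.76, 5.42, 5.61 and 5.47 in knockout lungs, with a wide gap between the groups, and fell by 1.08 ± 0.09 (SE, limma adjusted p = 1.16e-05). Ccl5, a chemokine of effector T and NK cells, was 3.86-fold lower, and Ikzf3, a lymphoid transcription factor that B cells also make, was 3.22-fold lower. Ccr7, the receptor that guides naive T cells and migrating dendritic cells to lymph nodes, was 2.01-fold lower. The number of lower genes was 15 without knockout replicate 3, 13 without knockout replicates 1 and 3 together and 8 among the low-Xist arrays.

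Markers of other leukocytes moved with the T lineage genes. All 15 measured B cell markers fell, with a median difference of -1.03, and the mean level of the list was 5.39 to 5.48 in stabilized and 6.34 to 6.70 in knockout lungs. Among the named B cell markers, Cd79a lay at 5.51, 5.48, 5.54 and 5.07 against 7.31, 7.5, 7.04 and 7.17. Of 18 NK cell markers 10 fell and 8 did not pass, with the list at 4.79 to 4.89 against 5.19 to 5.53. Klrd1 fell by 1.23 ± 0.14 (SE), while Klrb1c differed by 0.14 ± 0.11 (SE, limma adjusted p = 0.448). Eomes and Il2rb, which fell, were also counted in the list of other T cell identity and effector genes. NK cells share several of the 34 genes, and their part in the result was not tested.

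Of 10 pan-leukocyte genes 9 fell, at 8.33 to 8.53 against 8.66 to 9.26, among them Coro1a by 0.71 ± 0.12 (SE) and Cd37, which B cells make most of, by 1.14 ± 0.16 (SE). This count was 2 without knockout replicate 3, 4 without stabilized replicate 2, 6 without stabilized replicate 1 or 4, and 0 among the low-Xist arrays. Of 10 dendritic cell markers 5 fell, among them Ccr7, which was also counted in the list of other T cell identity and effector genes. By contrast, 0 of 9 macrophage and monocyte markers fell and 2 rose, Mrc1 by 0.43 ± 0.09 and Lyz2 by 0.21 ± 0.06 (SE), the latter not holding in 7 of 8 leave-one-out fits (adjusted p up to 0.116). None of 8 endothelial markers passed (limma; 1, Vwf, had an unadjusted p under 0.05, and the differences lay between -0.07 and 0.22), 2 of 8 fibroblast markers, Tcf21 and Pdgfra, rose and 0 fell, and of 5 markers of group 2 innate lymphoid cells 1 fell, Klrg1, which NK and T cells also make. Neither Il13 nor Il5, the cytokines of group 2 innate lymphoid cells, passed the test. All 5 markers of these cells had a mean below that of the median gene, so a small change may not be measurable here. Their mean, Klrg1 included, lay at 4.95 to 5.25 in stabilized and 5.35 to 5.56 in knockout lungs, without overlap.

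Tissue that could be carried along with a lung was also checked. Whether the muscle RNA came from carried tissue or from the lung itself was not tested. None of 6 thymic stroma markers passed (limma; 2, Foxn1 and Tbata, had an unadjusted p under 0.05, and 1 gene fell without stabilized replicate 4), and the list lay at 5.14 to 5.45 in stabilized and 5.37 to 5.40 in knockout lungs. Knockout replicate 1, the highest array for the T lineage genes, was at 5.38. All 6 thymic stroma markers had a mean below that of the median gene, so a small amount of thymus may not be measurable here. Of 14 cardiac and skeletal muscle markers 4 fell (2 without knockout replicate 3 and 7 without knockout replicate 2), with the list at 7.57, 7.18, 7.64 and 7.24 in knockout replicates 1, 2, 3 and 4 and at 7.0 to 7.11 in the stabilized arrays. Knockout replicates 1 and 3 were the highest arrays for the muscle list and the T lineage genes, and also for both other T cell lists and the NK, B, dendritic, group 2 innate lymphoid and pan-leukocyte lists, and the part of carried tissue in the result was not tested. In knockout replicates 2 and 4 the muscle list lay closer to the stabilized arrays, but still above all of them. T lineage genes had a mean level of 6.39 and 6.23 in these 2 arrays, against 5.75 to 5.94 in stabilized lungs. Both lists were thus higher in these 2 arrays than in every stabilized array. Of 7 lymphoid stroma markers 2 fell (1 to 3 with 1 array left out), and Cxcl13, a B cell attractant, rose by 0.66 ± 0.12 (SE). Of 6 other thymocyte genes 2 fell, Myb, which other progenitors also make, by 0.98 ± 0.08 (SE) and Ccr9, a homing receptor, by 0.40 ± 0.10 (SE), the latter in 2 of 8 leave-one-out fits. Ccr9 was also counted in the list of other T cell identity and effector genes.

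**Figure D5:**
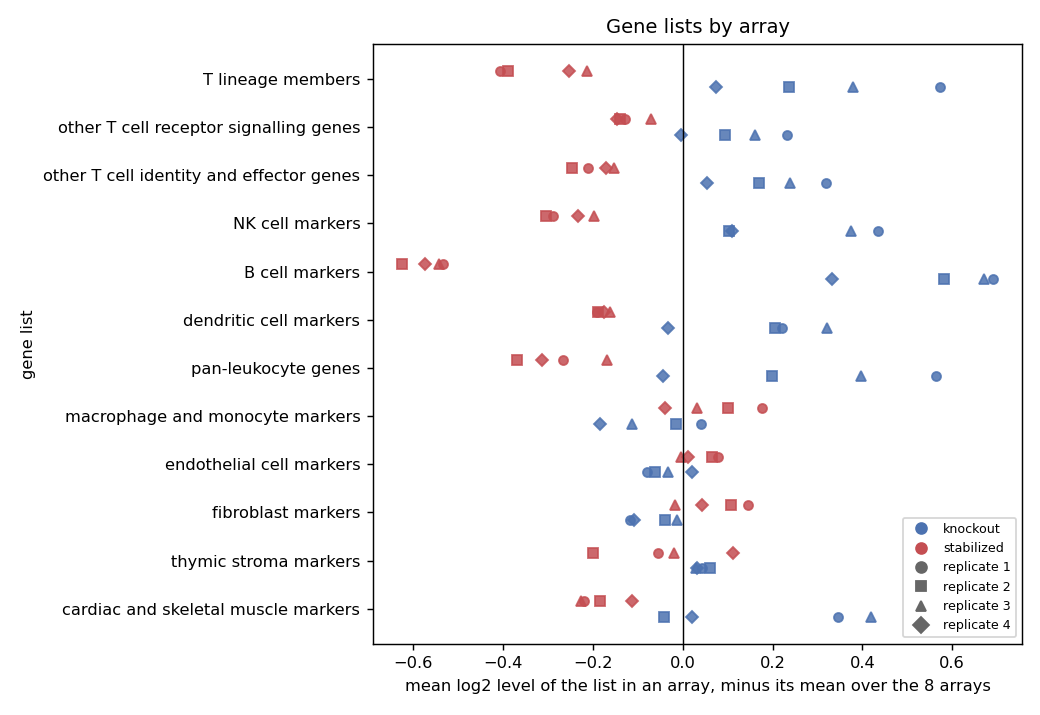
Mean log2 level of 12 gene lists in each array, relative to the mean over the 8 arrays, with knockout in blue, stabilized in red and marker shapes for replicates. Stabilized and knockout arrays are separate for the T lineage, both other T cell, NK, B cell, dendritic, pan-leukocyte and muscle lists. They overlap for the macrophage, endothelial, fibroblast and thymic stroma lists. Knockout replicates 1 and 3 are the highest arrays for each of the separate lists.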

How the data were processed

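Lung RNA of 8 mice was measured on Affymetrix arrays, 4 stabilized and 4 knockout. The deposited values are log2 expression per probe set, made with RMA and affy per the submitters' processing notes (their versions and the genome build: not given in the sources used here). RMA equalises the arrays' distributions, which would hide a change in total RNA, and arrays carry no read depth, so their number limits precision. Of 34760 probe sets, 21640 had 1 gene symbol in the platform annotation, 1321 had several and 11799 had none. Genes were fitted without a filter in limma 3.58.1 (R 4.3.3; lmFit, eBayes; 12.2 degrees of freedom including 6.20 from the prior) with Benjamini-Hochberg adjustment over 19937 genes and a threshold of 0.05. Differences are stabilized minus knockout, SE is moderated and SD is across 4 arrays. The fit was tested on simulated data. Members and lists were chosen with earlier results of these data known. Named genes were all 36 members, up to 4 genes with the smallest p in each other list, and Xist and Kdm5d; others named are markers singled out after their values were seen. Alternatives changed scaling, filter, probe sets, variance prior, weights, replicate block, Xist pattern and arrays included; 2 of them (knockout replicates 1 and 3 left out together, and the genotype by Xist interaction) were chosen after seeing the data. Promoter windows are RefSeq's, GRCm38.p6; array probes have no stated build.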

Additional observations from a re-analysis of the deposited data

Results flagged for a closer look

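Among the 68 sets of 4 arrays examined (34 genes in 2 groups), 1 array stood far from the others of its group. Cd27 in stabilized replicate 2 was at 4.91, while the other 3 stabilized arrays lay between 5.17 and 5.18, so its gap took up 0.964 of the group's range, above Dixon's 95% critical value. Chance alone flags about 1 in 20 such groups.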

How the results depend on the processing

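With 1 array left out, the number of T lineage genes that fell was 18 to 24, the 13 lower genes of the other receptor signalling list were 10 to 18, its 1 higher gene was 0 to 1, the 23 lower other T cell genes were 15 to 23 and their 0 higher genes 0 to 1. All called genes, 1917 in the reported fit, were 1216 to 1839. Among the low-Xist arrays alone these were 5 T lineage genes, 1 lower and 0 higher receptor signalling genes, 8 lower other T cell genes and 354 genes in all. Among the high-Xist arrays alone they were 19, 0 higher receptor signalling genes, 15 lower other T cell genes and 670 in all, with a median difference of -0.78 for the T lineage genes. Both restrictions leave 2 arrays per group. Without knockout replicates 1 and 3 together, an alternative chosen after seeing the data, they were 13, 8 lower and 0 higher, 13 lower, and 795 in all. With genes below the median level left out, 12 T lineage genes remained, 10 of them fell, their median difference was -0.84, and the other T cell genes gave 10 lower and 1 higher. The single higher receptor signalling gene was lost (0) with repeated quantile normalization or the Xist pattern as covariate, and median centring or a trend in the variance prior called 1 other T cell gene higher. Only uncalled genes turned sign: Gata3 (0.031 with centring, 0.028 with array weights, 0.0027 in the low-Xist arrays, 0.091 without knockout replicates 1 and 3, -0.082 to 0.062 with 1 array left out), Rag1 (0.039 without those 2 arrays, -0.16 to 0.012 with 1 array left out) and Ptcra (0.018 with repeated quantile normalization, 0.12 in the high-Xist arrays, -0.15 to 0.019 with 1 array left out). Replicate numbers did not pair the arrays: same-numbered deviations correlated at 0.084, 0.074, -0.0051 and 0.017, and 2 of 8 arrays correlated best with their own number. With the replicate block, 22 T lineage genes fell. Signal over background could not be assessed from these values, and dim genes limit what small differences can show.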
